A study of Mus musculus with 15 samples.

Results

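The 44 genes described here carry symbols of nuclear subunits of respiratory complexes II to V and the carrier cytochrome c. They were taken from the 37681 genes of the count table by symbol alone. Symbols were Sdha, Sdhb, Sdhc, Sdhd, Cyc1 and Cycs, or began with Uqcr, Cox4i, Cox5, Cox6, Cox7, Cox8 or Atp5. Of 51 matching genes, 1 with a pseudogene symbol was dropped, as were Cox8b and Cox7a1, whose proteins are the muscle and brown fat isoforms. A further 4 did not reach a count of 10 in 5 libraries: Cox8c and Cox7b2 had 0 counts throughout, Atp5l2 reached at most 7, and Cox6a2 passed 10 in 2 libraries with at most 31. The 44 kept genes comprise 4 of complex II, 9 of complex III, cytochrome c, 13 of complex IV and 17 of complex V, and none had fewer than 41 counts in any library.

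RNA came from the thoracic aorta of adult male wildtype C57BL/6 mice aged 10 to 12 weeks. Animals received celecoxib at 30 mg/kg, rofecoxib at 10 mg/kg or the vehicle PEG-400 alone, in 100 µL by gavage, and were killed 6 hours later at Zeitgeber hour 11. Both agents are selective cyclooxygenase-2 inhibitors, and the comparisons ask what each did to aortic transcripts against vehicle. Each group held 5 libraries, named below by group and replicate number. The labels give no animal for each library, so p-values measure the spread between these samples, which may be technical.

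In the respiratory chain, complex II (succinate dehydrogenase) passes electrons from succinate to ubiquinone, complex III passes them on to cytochrome c, and complex IV (cytochrome c oxidase) passes them to oxygen. Complexes III and IV pump protons out of the mitochondrial matrix, and complex V (ATP synthase) makes ATP as they flow back. Most subunits are encoded in the nucleus, and the respiratory chain is abundant in brown fat, muscle and heart, while vascular smooth muscle draws much of its ATP from glycolysis. The fat that surrounds the mouse thoracic aorta has features of brown fat.

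Deposited counts summed to between 30937046 and 30967115 per library, and 15134 genes entered the test. All 37 genes of the mitochondrial genome held 0 counts, so the mitochondrially encoded subunits of complexes III to V were not measured. Levels below are normalised read counts (CPM, counts scaled by the TMM library sizes). Summed over 9 smooth muscle markers they lay between 39896 and 56227, so the defining markers of the labelled tissue were abundant. Markers of adipocytes were also present: 17 white and general adipocyte genes summed to 2309 to 8376 CPM, and 16 brown adipocyte genes to 310.1 to 2117 CPM. In these bulk samples, fewer cells of a type and less RNA per cell cannot be told apart.

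Several members share letters in their promoters for factors known to drive respiration genes, NRF1, GABPA (NRF2), YY1 and the oestrogen-related receptors (ERR). RefSeq promoter windows of GRCm38.p6 (250 bases before to 50 after the start, 300 in all, the first listed window of a gene) matched 35 of the 44 members. They were searched on both strands for GCGCANGCG (NRF1), CCGGAAG (GABPA), AAGATGGCG (YY1) and TCAAGGTCA (ERR), and matches of different motifs did not overlap in any member. NRF1 letters occurred in 12 members (34.3%) and in 6.47% of all 27025 windows. GABPA letters occurred in 11 (31.4%, against 9.12%), YY1 letters in 2 (5.71%, against 1.49%) and ERR letters in 2 (5.71%, against 0.407%). At least 1 of the 4 was present in 19 members (54.3%) and in 15.7% of all windows. Over the 17491 windows of protein-coding genes, the shares were 8.83% for NRF1, 11.9% for GABPA, 1.94% for YY1 and 0.332% for ERR. At least 1 of the 4 was present in 20.5% of them. These are letter matches and say nothing of binding in the aorta. No window was matched for Sdhc, Cyc1, Uqcrb, Uqcrc2, Uqcrq, Cox4i1, Cox4i2, Cox6c or Atp5a1.

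The following stretches of GRCm38.p6 before the start site are shown 5′ to 3′ in the direction of the gene, with matches in capitals, because they cover the range of the responses described below. Cycs, the member with the most negative value under celecoxib, holds 1 NRF1 match. Sdha holds 3 separate NRF1 matches. Cox6a1 holds NRF1 letters at 2 places, the first of which reads as a match on either strand, beside a GABPA match in the opposite orientation. Atp5g3, whose level was nearly the same in the 3 groups, holds an ERR match on the opposite strand in the stretch shown and an NRF1 match downstream of it.
Cycs (chr6:50566582-50566670, minus strand): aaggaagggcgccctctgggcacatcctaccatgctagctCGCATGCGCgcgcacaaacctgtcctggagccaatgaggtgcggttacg
Sdha (chr13:74350241-74350378, minus strand): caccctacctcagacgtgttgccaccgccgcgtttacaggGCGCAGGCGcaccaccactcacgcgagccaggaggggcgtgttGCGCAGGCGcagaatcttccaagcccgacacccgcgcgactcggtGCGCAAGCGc
Cox6a1 (chr5:115348959-115349160, minus strand): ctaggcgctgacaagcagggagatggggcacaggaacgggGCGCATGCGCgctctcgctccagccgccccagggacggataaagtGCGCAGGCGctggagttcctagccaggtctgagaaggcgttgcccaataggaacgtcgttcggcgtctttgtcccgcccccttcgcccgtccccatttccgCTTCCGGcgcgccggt
Atp5g3 (chr2:73911330-73911418, minus strand): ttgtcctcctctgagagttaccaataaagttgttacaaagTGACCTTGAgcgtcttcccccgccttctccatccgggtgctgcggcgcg
Under celecoxib, 14 of the 19 members with a match and 9 of the 16 without stood lower at an unadjusted p under 0.05, and under rofecoxib 17 and 11. Over all genes tested, 7.18% were lower at that p under celecoxib and 3.71% under rofecoxib. Members with and without a match were not tested against each other. The median log2 fold changes of those with and without a match were -0.29 and -0.24 under celecoxib, and -0.30 and -0.30 under rofecoxib.

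Levels in the vehicle aorta were compared between genes as CPM per kilobase of exon, using GENCODE M21 exon lengths because the authors' annotation is not given. Cox6a1 of complex IV was highest at 323, followed by Cox8a at 245 and by the catalytic β and α subunits of ATP synthase, Atp5b at 225 and Atp5a1 at 220.3. Complex II ran from 43.2 for Sdhc to 90.01 for Sdhd, and complex III from 31.5 for Uqcrq to 125 for Uqcrb. The ranges of all complexes overlapped. The lowest members were Atp5l at 8.59, Atp5sl at 7.81, Cox4i2 at 4.04, Atp5s at 2.32 and Cox6b2 at 1.75. Cox4i2 is the lung isoform of subunit 4 and Cox6b2 the testis isoform of subunit 6b. Atp5s and Atp5sl were placed in complex V by symbol alone and are not established subunits of ATP synthase. Long exon models lower the value per kilobase, as for Atp5l with 6443 bases, and small subunit genes with near-identical copies elsewhere may share reads with them, so these levels are approximate.

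**Figure D1:**
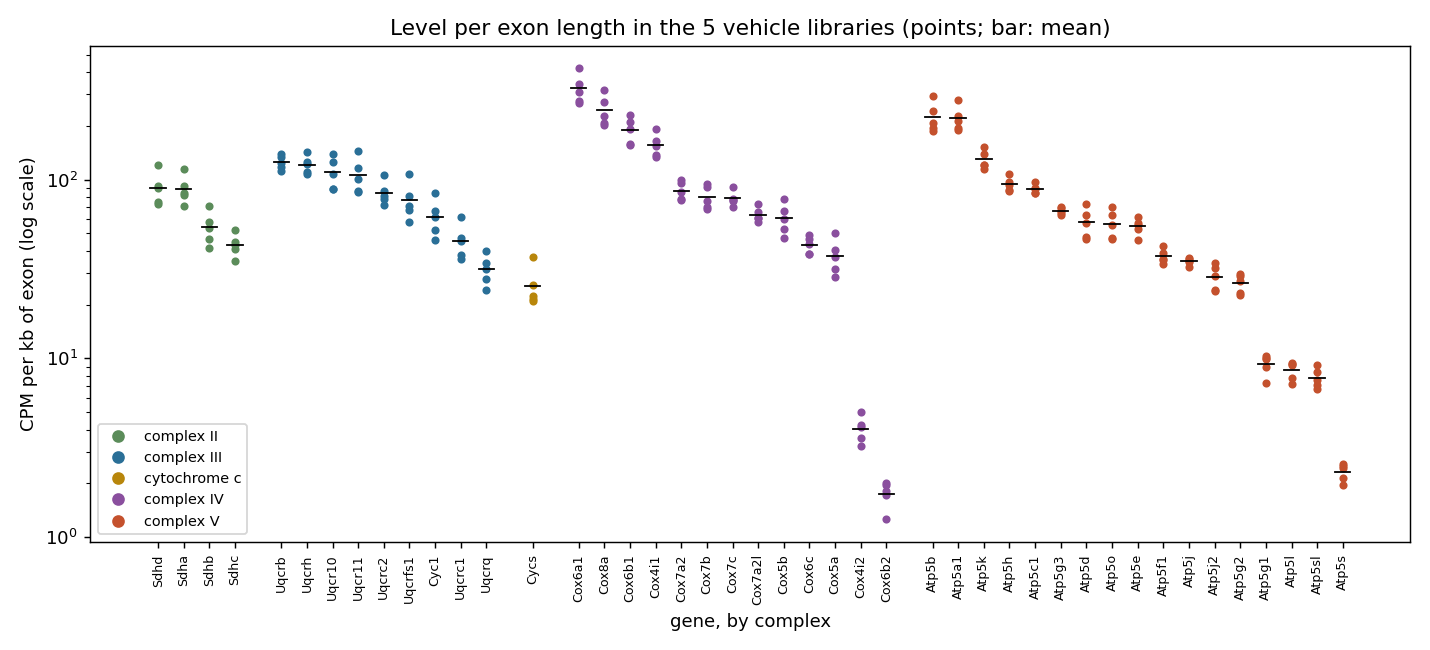
Level of each of the 44 genes in the 5 vehicle libraries as CPM per kilobase of exon on a log axis, grouped by complex; points are libraries and bars their mean. Most genes lie between Cycs and Cox6a1, and the means of Cox4i2, Cox6b2, Atp5s, Atp5sl, Atp5l and Atp5g1 sit below 10.

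Most members had lower mean levels in both treated groups than in vehicle, by amounts that did not pass the test. No member passed an adjusted p of 0.05 in any comparison by edgeR's quasi-likelihood test, and neither did any of the 15134 genes (0% called in each). By DESeq2's Wald test, 129 genes were called under celecoxib and 0 under rofecoxib, among them 0 members. Under celecoxib, 40 of 44 members had negative log2 fold changes, with a median of -0.27 against 0.01 over all genes. At an unadjusted p under 0.05, 31 were lower and 0 higher, where 7.18% of all genes were lower and 5.35% higher. The adjusted p of those 31 lay between 0.275 and 0.376. Under rofecoxib, 41 of 44 were negative, with a median of -0.30 against -0.00 over all genes. There 35 were lower and 0 higher, where 3.71% of all genes were lower and 1.47% higher, and their adjusted p lay between 0.896 and 0.941. The comparisons share the vehicle libraries, so the 30 members lower in both are not independent evidence.

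Summed over the 44 members, CPM was 6205, 5472, 5621, 6764 and 7932 in vehicle 1 to 5, 5790.1, 4464, 4920.3, 6073 and 4482 in celecoxib 1 to 5, and 5690.3, 4924, 5159.6, 5259.96 and 4801 in rofecoxib 1 to 5. Vehicle 5 and vehicle 4 were the 2 highest libraries, celecoxib 2 and celecoxib 5 the lowest, and both treated groups overlapped vehicle. Vehicle 5 was the highest of the 15 libraries for 37 of the 44 members, while it was the highest for 11% of all genes. Celecoxib 2 was the lowest for 20 members and celecoxib 5 for 17. Without vehicle 5, the members lower at an unadjusted p under 0.05 numbered 20 under celecoxib, with a median of -0.20, and 19 under rofecoxib, with a median of -0.24. Without celecoxib 5 they numbered 20 under celecoxib. Over all genes, those at an unadjusted p under 0.05 in either direction numbered 1896 under celecoxib and 784 under rofecoxib with all libraries. Without vehicle 5 the genes numbered 1330 and 453, and without celecoxib 5 they numbered 2175 under celecoxib.

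**Figure D2:**
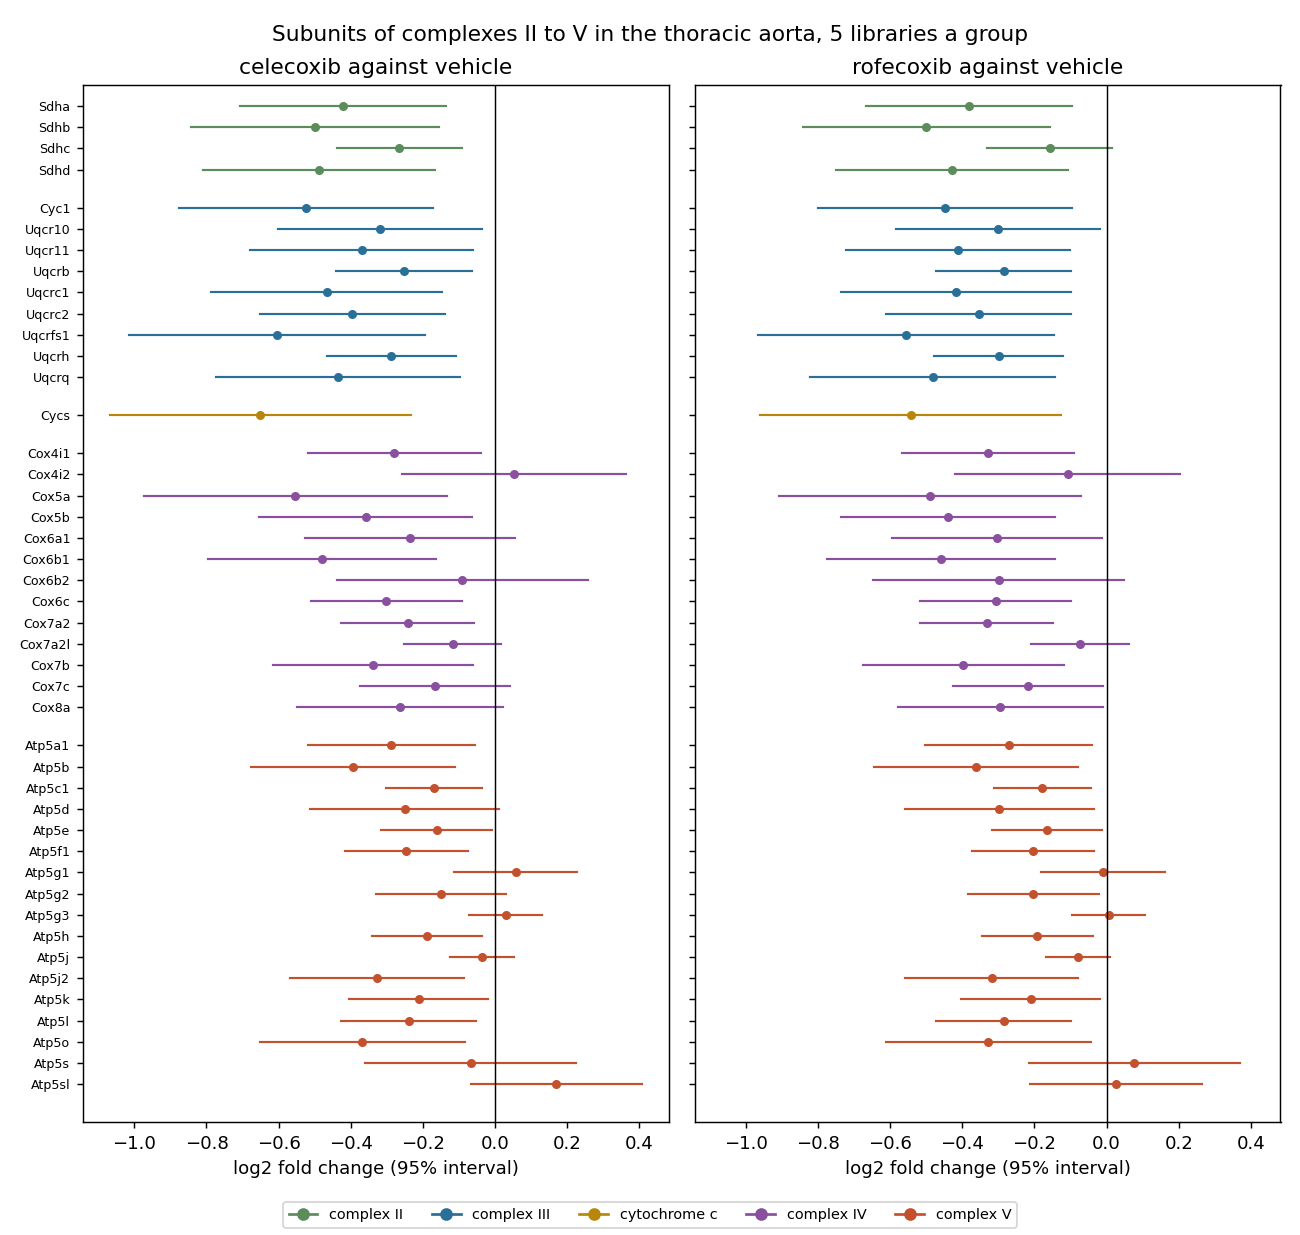
Log2 fold change of each member against vehicle with its 95% interval, celecoxib on the left and rofecoxib on the right, coloured by complex. Complexes II and III and cytochrome c have all points below 0, and complexes IV and V hold the members near 0, such as Atp5g3, Atp5j and Cox4i2.

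All 4 subunits of complex II had negative values, with medians of -0.45 under celecoxib and -0.41 under rofecoxib. Under celecoxib 4 of 4 were lower at an unadjusted p under 0.05, and under rofecoxib 3. Sdhb (ENSMUSG00000009863, chromosome 4, 140516916 to 140535310 in mm9) encodes the iron-sulfur subunit. CPM of Sdhb was 119.7, 93.1, 104, 130.3 and 159.6 in vehicle 1 to 5, 100.4, 66.4, 84.02, 110.2 and 68.3 in celecoxib 1 to 5, and 101, 76.2, 89.2, 85.7 and 77.2 in rofecoxib 1 to 5. All 10 treated libraries lay below the vehicle median of 119.7, but the groups overlapped, since vehicle 2 was below celecoxib 1 and 4 and rofecoxib 1. Sdhb had a log2 fold change of -0.50 in celecoxib (95% interval -0.84 to -0.15, edgeR adjusted p = 0.284) and -0.50 in rofecoxib (interval -0.84 to -0.16, adjusted p = 0.896). Sdha, the flavoprotein that oxidises succinate, averaged 367 ± 67.5 CPM in vehicle (SD, n = 5), 274 ± 44.2 in celecoxib and 281 ± 37.7 in rofecoxib. The membrane anchors differed in size: Sdhd stood at -0.49 and -0.43 under celecoxib and rofecoxib, and Sdhc at -0.27 and -0.16.

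Complex III gave the most uniform picture, with 9 of 9 subunits lower at an unadjusted p under 0.05 in both comparisons and medians of -0.40 under celecoxib and -0.41 under rofecoxib. Uqcrfs1, the Rieske iron-sulfur protein, had the most negative values of the complex at -0.60 and -0.56. Cyc1, the cytochrome c1 subunit that hands electrons to cytochrome c, stood at -0.52 and -0.45, and the core proteins Uqcrc1 and Uqcrc2 at -0.47 and -0.40 under celecoxib and -0.42 and -0.35 under rofecoxib. Uqcrh (ENSMUSG00000063882, chromosome 4, 115739368 to 115747878 in mm9) encodes the small hinge protein that contacts cytochrome c1. CPM of Uqcrh was 150.4, 136, 133, 154 and 176 in vehicle 1 to 5, 137, 110.2, 126, 136 and 107 in celecoxib 1 to 5, and 124, 115, 122, 128 and 120.01 in rofecoxib 1 to 5. Every rofecoxib library lay below every vehicle library, whereas celecoxib 1 and 4 lay within the vehicle range. Uqcrh had a log2 fold change of -0.29 in celecoxib (95% interval -0.47 to -0.11, edgeR adjusted p = 0.275) and -0.30 in rofecoxib (interval -0.48 to -0.12, adjusted p = 0.896). Uqcrb and Uqcr11 also had no overlap between rofecoxib and vehicle, and Uqcrq stood at -0.44 and -0.48. In all, 7 members had rofecoxib libraries wholly below vehicle (0.72% of all genes did), and 0 members had celecoxib libraries wholly below vehicle (0.74% of all genes).

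Cycs (ENSMUSG00000063694, chromosome 6, 50512360 to 50516739 in mm9) encodes somatic cytochrome c, the mobile carrier between complexes III and IV. CPM of Cycs was 75.98, 71.05, 73.1, 88.1 and 126 in vehicle 1 to 5, 61.3, 37.8, 50.1, 78.8 and 48.6 in celecoxib 1 to 5, and 71.8, 53.3, 65.3, 58.3 and 49.3 in rofecoxib 1 to 5. Vehicle 5 stood above all other libraries and celecoxib 2 below them, a span of 3.33 times, the widest among the 44 members. Cycs had a log2 fold change of -0.65 in celecoxib (95% interval -1.07 to -0.23, edgeR adjusted p = 0.275) and -0.54 in rofecoxib (interval -0.96 to -0.13, adjusted p = 0.896).

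In complex IV, 7 of 13 subunits were lower at an unadjusted p under 0.05 under celecoxib and 10 under rofecoxib, with medians of -0.26 and -0.31. Cox7a2 (ENSMUSG00000032330, chromosome 9, 79602846 to 79607862 in mm9), the broadly expressed isoform of subunit 7a, had the smallest p of the complex under rofecoxib. CPM of Cox7a2 was 80.1, 72.2, 73.7, 90.6 and 93.4 in vehicle 1 to 5, 76.7, 62.8, 72.9, 75.8 and 58.6 in celecoxib 1 to 5, and 64.7, 61.9, 67.96, 67.8 and 63.4 in rofecoxib 1 to 5. The rofecoxib values all lay below vehicle, and celecoxib 1, 3 and 4 overlapped it. Cox7a2 had a log2 fold change of -0.24 in celecoxib (95% interval -0.43 to -0.06, edgeR adjusted p = 0.3) and -0.33 in rofecoxib (interval -0.52 to -0.15, adjusted p = 0.896). Cox6b1, which bridges the monomers of the cytochrome oxidase dimer, averaged 134 ± 22.5 CPM in vehicle (SD, n = 5), 95.9 ± 22.99 in celecoxib and 97.2 ± 7.64 in rofecoxib. Cox6c and Cox7b, like Cox6b1, had rofecoxib libraries wholly below vehicle.

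Cox5a (ENSMUSG00000000088, chromosome 9, 57368837 to 57380433 in mm9), a matrix-facing subunit, had the most negative value of complex IV under both compounds. CPM of Cox5a was 77.7, 59.96, 66.8, 84.4 and 106 in vehicle 1 to 5, 64.5, 36.7, 47.3, 76.7 and 43.95 in celecoxib 1 to 5, and 70.8, 51.4, 55.6, 54.8 and 48.5 in rofecoxib 1 to 5. Vehicle 5 and 4 were highest and celecoxib 2 and 5 lowest. Cox5a had a log2 fold change of -0.55 in celecoxib (95% interval -0.97 to -0.13, edgeR adjusted p = 0.3) and -0.49 in rofecoxib (interval -0.91 to -0.07, adjusted p = 0.896). Cox5b stood at -0.36 and -0.44, and Cox4i1, the common isoform of subunit 4, at -0.28 and -0.33. Cox6a1 and Cox8a, the highest members per kilobase, stood at -0.24 and -0.26 under celecoxib and -0.30 and -0.29 under rofecoxib. Cox7a2l, a supercomplex assembly factor related to subunit 7a, stood at -0.12 and -0.07.

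In complex V, 10 of 17 members were lower at an unadjusted p under 0.05 under celecoxib and 12 under rofecoxib, with medians of -0.19 and -0.20. Atp5b (ENSMUSG00000025393, chromosome 10, 127520127 to 127527649 in mm9) encodes the catalytic β subunit. CPM of Atp5b was 877, 789, 824, 1032 and 1247 in vehicle 1 to 5, 797, 603, 678, 899.8 and 649 in celecoxib 1 to 5, and 867, 697, 745, 729 and 675 in rofecoxib 1 to 5. Vehicle 5 was highest, and rofecoxib 1 and celecoxib 1 and 4 lay within the vehicle range. Atp5b had a log2 fold change of -0.39 in celecoxib (95% interval -0.68 to -0.11, edgeR adjusted p = 0.29) and -0.36 in rofecoxib (interval -0.64 to -0.08, adjusted p = 0.896). Atp5a1, the α subunit, stood at -0.29 and -0.27, and Atp5c1, the γ subunit of the central stalk, at -0.17 and -0.18. Of the membrane and peripheral stalk subunits, Atp5f1 stood at -0.25 and -0.20, Atp5j2 at -0.33 and -0.32, and Atp5l at -0.24 and -0.29.

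Several members of complex V differed little between groups. Atp5g3 (ENSMUSG00000018770, chromosome 2, 73746302 to 73749585 in mm9) is 1 of 3 genes for the same mature c subunit of the rotor ring. CPM of Atp5g3 was 142, 146, 139, 151 and 154 in vehicle 1 to 5, 161, 145, 142, 153 and 144 in celecoxib 1 to 5, and 142, 150.05, 139, 154 and 149 in rofecoxib 1 to 5. The groups overlapped throughout, and its vehicle libraries had the smallest coefficient of variation among the 44 members, 4.25%. Atp5g3 had a log2 fold change of 0.03 in celecoxib (95% interval -0.07 to 0.13, edgeR adjusted p = 0.838) and 0.01 in rofecoxib (interval -0.10 to 0.11, adjusted p = 1). Its paralogue Atp5g1 stood at 0.06 and -0.01, the second turning to 0.01 with upper-quartile scaling, and Atp5g2 at -0.15 and -0.20. Atp5j, the coupling factor 6 of the peripheral stalk, stood at -0.04 (interval -0.12 to 0.05) and -0.08 (interval -0.17 to 0.01). Of the 2 genes placed here by symbol alone, Atp5sl had the most positive value under celecoxib, 0.17 (interval -0.07 to 0.41). Atp5s had that under rofecoxib, 0.08 (interval -0.22 to 0.37). These intervals bound the differences and do not show that the levels were equal.

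**Figure D3:**
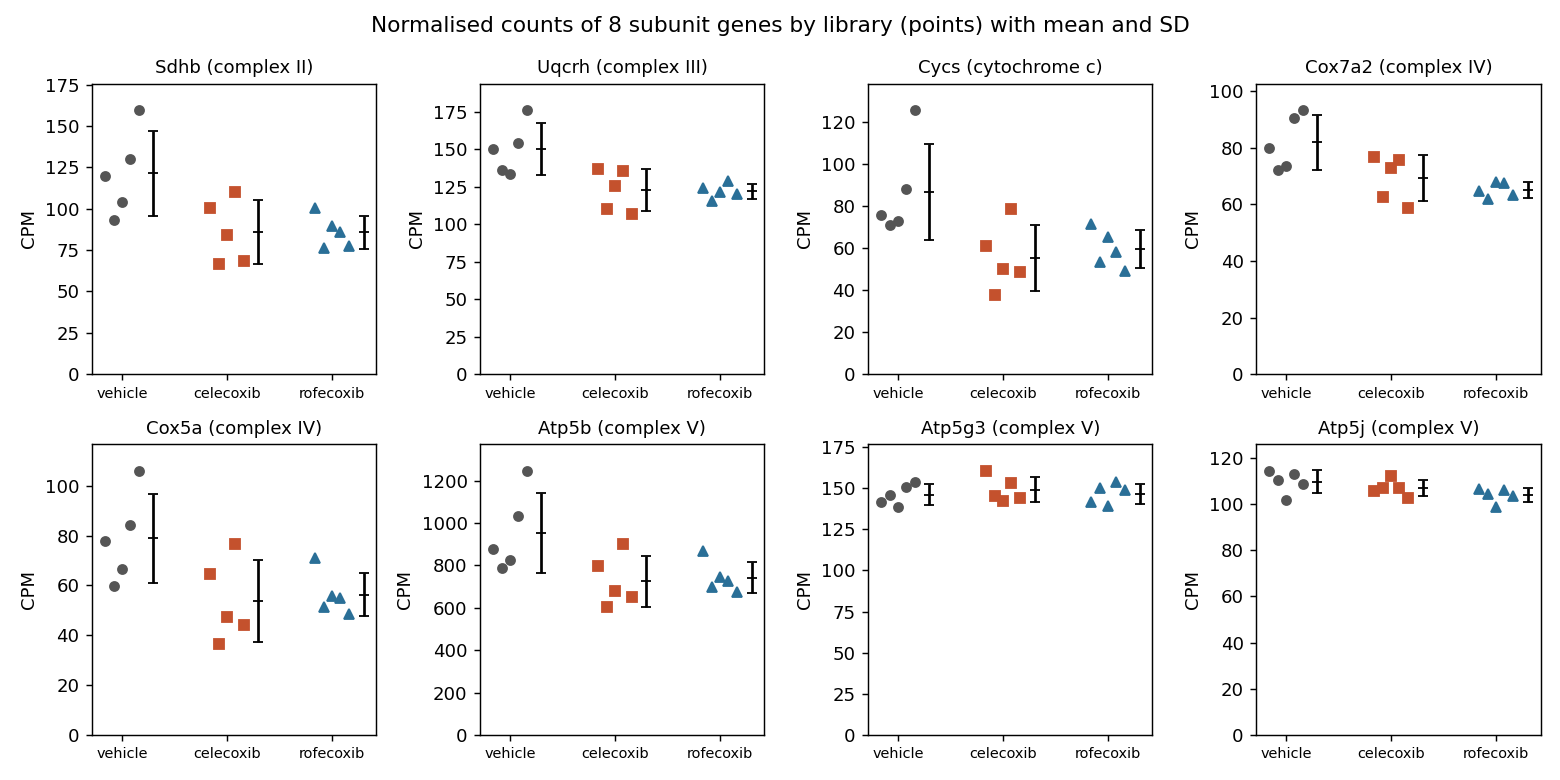
CPM of 8 member genes in each library, with mean and SD beside the points; axes start at 0. For Sdhb, Cycs, Cox5a and Atp5b the highest point is vehicle 5, Uqcrh and Cox7a2 show all rofecoxib points below all vehicle points, and Atp5g3 and Atp5j lie at similar heights in the 3 groups.

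The doses of the treated groups differed, and their levels are set side by side. In celecoxib against rofecoxib, with no tissue level in the fit, 0 of 44 members passed the adjusted threshold, and at an unadjusted p under 0.05, 0 were lower (2.91% of all genes) and 0 higher (4.05%). No member had celecoxib libraries wholly below rofecoxib (0.634% of all genes). The median log2 difference was 0.01, as over all genes (0.01), from -0.14 for Atp5s to 0.21 for Cox6b2. The 95% intervals were widest downward for Cycs, reaching -0.52, and upward for Cox6b2, reaching 0.56, so differences within those bounds remain possible. Sdhc stood at -0.11 (interval -0.28 to 0.07) and Atp5sl at 0.15 (interval -0.09 to 0.38), the smallest p among the members.

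The adipocyte genes moved with the members across libraries. Summed CPM of the 17 white and general adipocyte genes was 4566, 3738, 4551, 7821 and 8376 in vehicle 1 to 5, 5216, 2309, 3205, 4856 and 3114 in celecoxib 1 to 5, and 6097, 3689, 3752, 3884 and 3024 in rofecoxib 1 to 5. The highest 2 libraries were vehicle 5 and 4, and celecoxib 2 was lowest, as for several members above. Of the 17 genes, 13 (76.5%) were lower at an unadjusted p under 0.05 under celecoxib, where 7.18% of all genes were lower. Under rofecoxib 1 (5.88%) was lower, where 3.71% of all genes were, and the medians were -0.90 and -0.51. Fabp4, the adipocyte fatty acid carrier, averaged 1028 ± 347 CPM in vehicle (SD, n = 5), 551 ± 221 in celecoxib and 685 ± 190.5 in rofecoxib. Plin4 went the other way under celecoxib, with 926 ± 126 CPM in vehicle, 1200 ± 559 in celecoxib and 831 ± 71.3 in rofecoxib. Of the 17 genes, 2 had positive values under celecoxib and 0 under rofecoxib. Of the 16 brown adipocyte genes, 13 (81.25%) and 9 (56.25%) were lower, with medians of -1.14 and -0.88. Ucp1, the uncoupling protein of brown fat, ranged from 165 to 996 CPM in vehicle, 6.63 to 243 in celecoxib and 60.9 to 217 in rofecoxib, so no library was at 0. Prdm16 had similar means, at 158 ± 49.0 CPM in vehicle (SD, n = 5), 159 ± 27.5 in celecoxib and 161 ± 16.3 in rofecoxib. It was the 1 brown adipocyte gene with a positive value in each comparison with vehicle.

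Each gene was then fitted with a slope on the mean log2 CPM of the 17 adipocyte genes, with group terms kept, a test chosen after seeing the data. A positive slope was called for 27 of 44 members at an adjusted p under 0.05 and a negative slope for 0, where 2.87% of all genes had a positive call. Called members numbered 3 of 4 in complex II, 7 of 9 in complex III, 8 of 13 in complex IV, 8 of 17 in complex V, and Cycs. The steepest were Cox5a at 0.55 ± 0.07 log2 CPM per unit (SE, edgeR adjusted p = 0.000237), Cycs at 0.53 ± 0.07 (adjusted p = 0.00099) and Uqcrfs1 at 0.50 ± 0.08 (adjusted p = 0.00203). Atp5g3 at 0.05 and Atp5j at 0.02 were not called. Without vehicle 4 and 5, the libraries farthest from the median adipocyte level, 13 of 44 members were called (1.28% of all genes), among them Cox5a at 0.59 and Cycs at 0.53.

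With the level of the white and general adipocyte genes in the fit, the members lower at an unadjusted p under 0.05 numbered 0 under celecoxib, with a median of -0.07. Under rofecoxib they numbered 23, with a median of -0.17. No fit held the level of the brown adipocyte genes, so its part in these counts was not tested. Members higher numbered 1 under celecoxib and 0 under rofecoxib. Over all genes, those at an unadjusted p under 0.05 in either direction numbered 1124 and 454 in this fit, against 1896 and 784 without that term. In celecoxib against rofecoxib, whose median was 0.01 without that term, the same fit gave a median of 0.09, with 3 of 44 members negative, 0 lower and 2 higher. In that comparison 1319 of the 15134 genes were at an unadjusted p under 0.05 in either direction, against 1053 without that term. Under that fit Cox6a1 and Cox8a stood at 0.06 and 0.03 under celecoxib, and Uqcrh at -0.21 and Cox7a2 at -0.24 under rofecoxib. With the smooth muscle level in the fit instead, members lower numbered 17 and 15, with medians of -0.23 and -0.25. Genes at an unadjusted p under 0.05 in either direction then numbered 1654 and 389. The summed smooth muscle level averaged 46630 ± 5235 CPM in vehicle (SD, n = 5), 49062 ± 1513 in celecoxib and 50081 ± 4127 in rofecoxib. Of its 9 genes, 1 was higher at an unadjusted p under 0.05 in each comparison with vehicle (5.35% and 1.47% of all genes). Skeletal and cardiac muscle genes, another source rich in these subunits, summed to 43.5 to 84.3 CPM in vehicle, 43.3 to 56.8 in celecoxib and 36.8 to 66.6 in rofecoxib. What set the adipocyte level of a library was not tested.

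**Figure D4:**
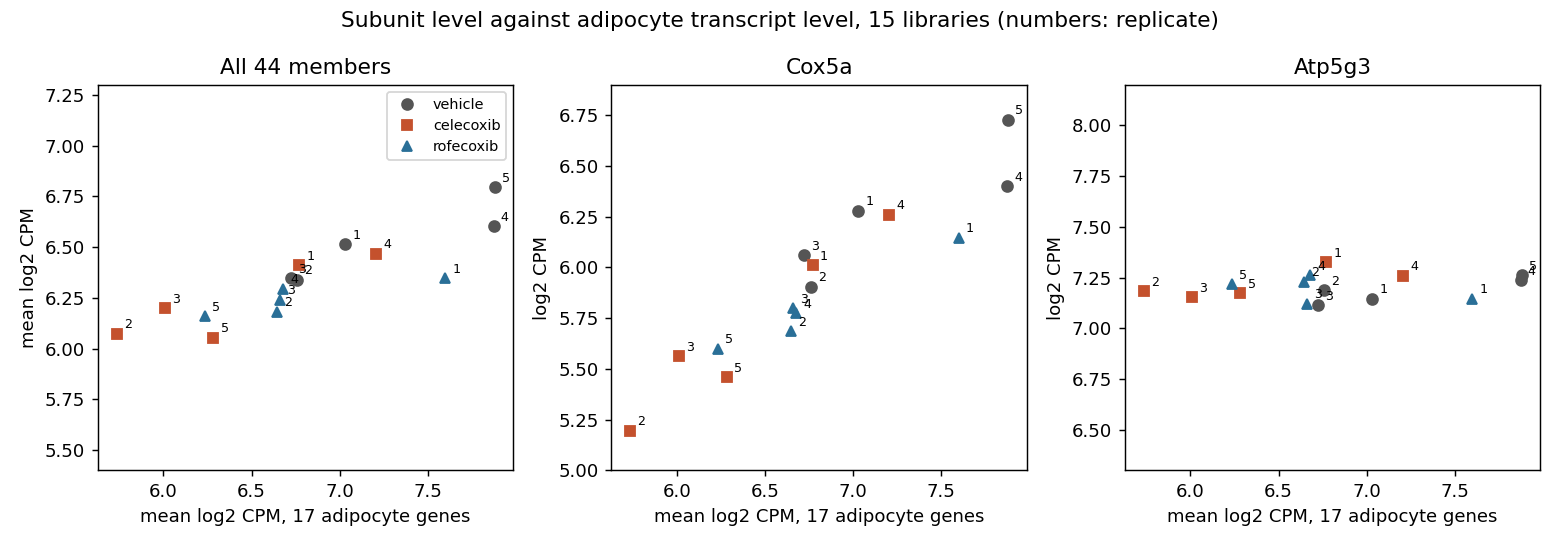
Mean log2 CPM of the 44 members, log2 CPM of Cox5a and log2 CPM of Atp5g3 against the mean log2 CPM of 17 adipocyte genes; each point is a library with its replicate number, and the vertical axes span the same range of log2 units. Cox5a climbs from celecoxib 2 at the lower left to vehicle 5 at the upper right, and Atp5g3 stays level.

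Ratios between isoforms within a library do not depend on its total, and 7 such ratios were compared in 3 comparisons, 21 exact two-sided permutation tests adjusted together. None passed, the smallest adjusted p being 0.0833, and 5 against 5 libraries allow no exact p below 0.00794. Atp5g2 to Atp5g3 under rofecoxib stood at that smallest p and still did not pass after adjustment over the 21 tests. These tests therefore had little room to pass, and the lack of a pass does not show that the ratios were equal. Cox8b, the muscle and brown fat isoform of subunit 8, had counts equal to 50.4, 31.4, 43.1, 44.7 and 58.5% of those of Cox8a in vehicle 1 to 5. The percentages were 27.2, 3.89, 21.5, 37.8 and 12.1% in celecoxib and 37.02, 17.8, 33.98, 22.3 and 15.9% in rofecoxib. Celecoxib 4 and rofecoxib 1 and 3 reached the vehicle range, the other treated libraries did not, and the adjusted p by the exact permutation test was 0.0833 for celecoxib and 0.1 for rofecoxib. For Cox7a1 to Cox7a2 the means were 37.2 ± 11.8% in vehicle (SD, n = 5), 17.3 ± 14.4% in celecoxib and 18.8 ± 7.51% in rofecoxib. Both left-out isoforms belong to the brown adipocyte list above, so these values are not separate from it.

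Cox4i2 counts were 1.07% to 1.61% of those of Cox4i1 in vehicle, 1.24% to 1.89% in celecoxib and 1.23% to 1.73% in rofecoxib. Cox6b2 to Cox6b1 was 1.18% to 1.96%, 1.36% to 2.82% and 1.36% to 1.79%. Both isoforms were therefore minor in all 15 libraries. Atp5g1 to Atp5g3 averaged 31.2 ± 3.83% in vehicle (SD, n = 5), 31.9 ± 1.79% in celecoxib and 30.9 ± 1.49% in rofecoxib. Atp5g2 to Atp5g3 was 34.3, 26.7, 27.4, 29.9 and 32.4% in vehicle 1 to 5 and 25.7, 26.2, 26.2, 26.4 and 26.1% in rofecoxib 1 to 5. The rofecoxib values lay just below all vehicle values, with an adjusted p of 0.0833 by the exact permutation test. Cox7a2l to Cox7a2 averaged 115.2 ± 11.6% in vehicle (SD, n = 5), 126 ± 9.26% in celecoxib and 137 ± 6.02% in rofecoxib, with adjusted p of 0.3 and 0.0833 by the exact permutation test against vehicle.

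**Figure D5:**
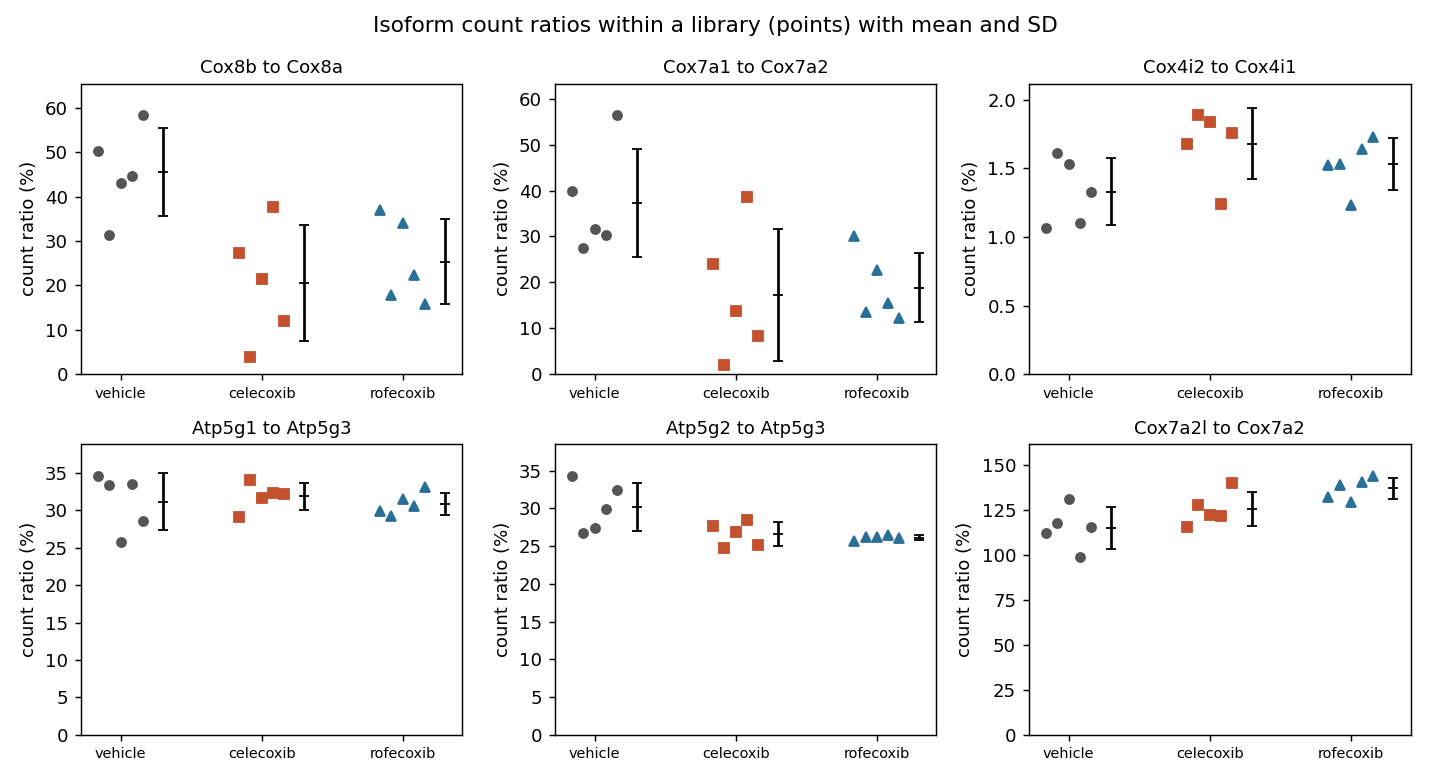
Count ratios of 6 isoform pairs as percent in each library, with mean and SD beside the points; axes start at 0. Cox8b to Cox8a and Cox7a1 to Cox7a2 spread widely and are mostly higher in vehicle, and Atp5g1 to Atp5g3 is near 31% in the 3 groups.

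Complex I, the entry point for electrons from NADH, gave counts of a similar kind. Of 37 genes with symbols of its subunits, 27 (73.0%) were lower and 0 higher at an unadjusted p under 0.05 under celecoxib. Under rofecoxib 31 (83.8%) were lower and 0 higher, and the medians were -0.29 and -0.28. Over all genes, 7.18% were lower and 5.35% higher under celecoxib, and 3.71% and 1.47% under rofecoxib. Of 34 assembly factors of complexes II to IV, 19 gene entries were tested, Cox16 being listed under 2 of them. Under celecoxib 9 (47.4%) were lower and 1 higher, and under rofecoxib 2 (10.5%) were lower and 0 higher, with medians of -0.18 and -0.09. Bcs1l, which inserts the Rieske protein into complex III, averaged 12.0 ± 1.04 CPM in vehicle (SD, n = 5), 9.32 ± 0.854 in celecoxib and 11.4 ± 0.614 in rofecoxib. Its celecoxib libraries, at most 10.0, lay below all vehicle libraries (edgeR adjusted p = 0.26). Hccs, which attaches haem to the c-type cytochromes, stood at -0.21 and -0.19, and Sdhaf2, which adds the flavin to Sdha, at -0.08 and -0.13.

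Of 13 genes for ATP synthase assembly, its inhibitor, cristae and ATP export, 5 (38.5%) were lower and 0 higher under celecoxib. Under rofecoxib 4 (30.8%) were lower and 0 higher, and the medians were -0.07 and -0.06. The shares lower over all genes were 7.18% and 3.71%. The cristae proteins Immt and Chchd3 stood at -0.34 and -0.30 under celecoxib and -0.26 and -0.33 under rofecoxib. The nucleotide carrier Slc25a4 stood at 0.11 and 0.04. Of 16 transcriptional regulators, 14 were tested, and 4 (28.6%) were lower and 1 higher under celecoxib. Under rofecoxib 1 (7.14%) was lower and 0 higher, where 3.71% of all genes were lower. Esrra, the oestrogen-related receptor α, averaged 37.7 ± 8.69 CPM in vehicle (SD, n = 5), 28.0 ± 3.39 in celecoxib and 30.9 ± 2.87 in rofecoxib. Its log2 fold changes were -0.43 and -0.29 (edgeR adjusted p = 0.275 and 0.95). The coactivators Ppargc1a and Ppargc1b, abundant in brown fat, stood at -0.61 and -1.10 under celecoxib and -0.47 and -0.56 under rofecoxib. Nrf1 and Gabpa, whose letters were searched above, stood at 0.10 and 0.01 under celecoxib, and at 0.10 and 0.02 under rofecoxib.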

How the data were processed

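The 15 libraries were made from polyadenylated RNA of thoracic aorta, with 13 cycles of PCR and libraries built over 3 days per the labels, which give no day for a library. The authors deposited whole-number counts per gene, and per the submitters' processing notes CASAVA 1.8.2, STAR 2.5.2a and build mm9 were used. For the counting tool, annotation and use of strand, nothing is given in the sources used here. Genes that overlap others or have near-identical copies are therefore uncertain. Library totals were nearly equal, no label records a step to a common total, and the depth before any such step is unknown. The members and gene lists were chosen with earlier results of these data known.

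Genes passing filterByExpr were fitted in 1 edgeR 4.0.16 quasi-likelihood model of all 15 libraries (R 4.3.3, TMM factors 0.953 to 1.04, robust dispersion, no covariate). P-values were adjusted over all 15134 genes by the Benjamini-Hochberg method at 0.05. Log2 fold changes have 95% intervals. The fit was tested on simulated counts. Isoform ratios used exact permutation tests (SciPy 1.17.1), for pairs with at least 10 counts in every library, which left out Cox6a2 to Cox6a1. No 2 libraries of a group agreed within sampling noise (chi-square per gene at least 13.1). Alternatives covered scaling, filters, DESeq2 1.42.0, limma-voom (limma 3.58.1), tissue covariates, the 2 groups alone, a replicate block and leaving out each library. Named genes were, per complex, the 3 of highest CPM and the 3 of smallest p in each comparison with vehicle, the members of most positive change, Cycs, the isoform pairs and the 2 of smallest p per pathway list. Genes described beside them were chosen after their values were seen.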

Additional observations from a re-analysis of the deposited data

Results flagged for a closer look

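Of 153 sets of 5 values tested (44 genes and 7 ratios in 3 groups), 2 held a library far from the other 4 by Dixon's criterion (critical value 0.71), where chance gives about 1 in 20. Rofecoxib 1 had 192.6 CPM of Cox6a1, and the other rofecoxib libraries lay between 181 and 183. Celecoxib 4 had a log2 count ratio of Cox4i2 to Cox4i1 of -6.34, and the other celecoxib libraries lay between -5.90 and -5.73.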

How the results depend on the processing

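The members called numbered 0 in every comparison under all alternatives run. DESeq2's Wald test called 129 genes in celecoxib against vehicle and 20 in celecoxib against rofecoxib, none of them a member. Leaving out 1 library gave 0 to 8 genes called in celecoxib against vehicle (8 without celecoxib 4, 2 without vehicle 2 and 1 without celecoxib 5) and 0 to 1 in celecoxib against rofecoxib (1 without celecoxib 5). It gave 20 to 36 members lower at an unadjusted p under 0.05 under celecoxib and 19 to 37 under rofecoxib, the lowest values without vehicle 5 and, for celecoxib, also without celecoxib 5. Genes at an unadjusted p under 0.05 in either direction then numbered 1330 to 2385 under celecoxib and 453 to 1099 under rofecoxib. The adipocyte covariate, from the white and general adipocyte genes alone, gave 0 members lower at that p and a median of -0.069 under celecoxib, and 23 members under rofecoxib. The smooth muscle covariate gave 17 and 15. Genes at that p in either direction numbered 1124 and 454 with the adipocyte covariate, and 1654 and 389 with the smooth muscle covariate. Fitting the 2 groups alone gave 1 lower member in celecoxib against rofecoxib, where 927 genes were at that p in either direction. The cause of these shifts was not tested. The median over all genes was at most 0.022 from 0 under the alternatives run.

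With the replicate block, 32 and 35 members were lower at an unadjusted p under 0.05 under celecoxib and rofecoxib, with medians of -0.27 and -0.29, and no call changed. Over all genes, those at that p in either direction numbered 1946 and 838 with the block. Libraries with the same number did not deviate together throughout, with correlations of deviations from -0.72 to 0.78, so the numbers were not taken as pairs.

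With the adipocyte covariate, Cox6a1 (0.055, from -0.24) and Cox8a (0.035, from -0.26) under celecoxib and Atp5s (-0.022) under rofecoxib changed sign. With the smooth muscle covariate Atp5g3 under rofecoxib was -0.00408, and Atp5g1 under rofecoxib was 8.4e-05 by limma-voom and 0.0062 with upper-quartile scaling. Leaving out 1 library, celecoxib values ranged from -0.0055 to 0.10 for Atp5g1, -0.18 to 0.039 for Atp5s and -0.018 to 0.14 for Cox4i2. Rofecoxib values ranged from -0.074 to 0.036 for Atp5g1, -0.012 to 0.031 for Atp5g3 and -0.011 to 0.093 for Atp5sl. The log2 ratio of Atp5g1 to Atp5g3 ranged from -0.028 to 0.079 for celecoxib and -0.073 to 0.034 for rofecoxib against vehicle. In celecoxib against rofecoxib, Atp5g2 to Atp5g3 ranged from -8.2e-05 to 0.049 and Cox7a1 to Cox7a2 from -1.04 to 0.026, the highest without celecoxib 2 and against -0.61 with all libraries. Of the single-gene and ratio values, 1650 kept direction and side of the threshold and 30 changed sign.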
